A study of Saccharomyces cerevisiae with 9 samples.

Results

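The transcriptome described here is that of untreated CAT-1, a Saccharomyces cerevisiae strain from Brazilian fuel-ethanol plants, while it fermented sugar cane molasses. Per the labels, the cells had been reused through 5 fed-batch cycles, with an acid treatment between cycles, and were harvested 4 hours into the last one. The untreated group has 3 RNA-seq libraries of the 9 in the series, and all 6357 rows of the deposited count table were ranked by CPM (each row's counts relative to the library total) within each of them. The labels give no antifoam agent for this group, and name neither the ploidy of CAT-1 nor whether the 3 samples came from separate fermentations, so the SDs below may be technical. The antifoam libraries are not compared here.

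Yeast that ferments sugar turns glucose into pyruvate by glycolysis, pyruvate decarboxylase then releases carbon dioxide, and alcohol dehydrogenase reduces the acetaldehyde to ethanol. Most of these steps are encoded by several related genes, or isoenzymes, which yeast uses to different degrees with sugar, oxygen and growth. Sugars, amino acids and ions enter through families of membrane transporters whose members differ in affinity and in the substrate they carry. Genes for other carbon sources, for mating and for spore formation are known to be held at low levels while sugar is plentiful.

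The libraries held 18245935 counts (control1), 12296693 counts (control12) and 6585639 counts (control13), so a count of 0 allows up to 0.164, 0.244 and 0.456 CPM. The column names control12 and control13 match no sample title and were taken as control libraries without a replicate number. Across rows, control1 and control12 had a Spearman correlation of 0.995, and control13 had 0.959 with control1 and 0.957 with control12. The library control13 stood apart from the other controls: of 3213 rows with a mean of at least 50 CPM, 332 differed more than 2-fold between control13 and the average of its partners, 77 higher and 255 lower. That direction rests on the scaling, since the median row was shifted by -0.45 (log2) in control13. With the TMM scaling of edgeR the shift was 0.036 and the same rows split into 298 higher and 4 lower, and with its RLE scaling into 313 higher and 3 lower. Between control12 and control1, 8 rows differed more than 2-fold under each scaling. Orders of the libraries below are those of CPM, and were checked under both scalings for each gene called lowest in control13. Values are therefore given for each library, always in the order control1, control12 and control13, and ± marks the SD over these 3 libraries. Levels of different genes are compared as CPM per kilobase of coding length (CPM per kb), with the length from the R64 reference. No test was run, since there is 1 group, and an exact sign-flip test over 3 libraries cannot give a two-sided p below 0.25.

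The most abundant single row was SCR1, the RNA of the signal recognition particle, which targets secreted proteins to the endoplasmic reticulum. It took 8.82, 8.84 and 11.6% of all counts. The labels state that ribosomal RNA was removed enzymatically before library construction. A row named snR20, whose name matched no entry of the reference table, was second by mean with 3.45, 3.43 and 2.51%. The 51 small nucleolar RNA rows, which guide processing and modification of ribosomal RNA, together took 7.86, 6.76 and 7.32%, led by the U3 copy snR17a with 14311, 13595 and 18231 CPM. The U1 spliceosomal RNA snR19 was at 19105, 18861 and 22500.0 CPM. Nuclear protein-coding rows held 73.8, 75.8 and 73.6% of counts and mitochondrial protein-coding rows 3.45, 2.61 and 1.94%.

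Few rows carried much of each library. The 10 most abundant rows held 22.5, 23 and 29.2% of counts, the top 50 held 35.4, 34.7 and 42.5% and the top 100 held 41.4, 40.7 and 48.9%, each highest in control13. Of the 30 rows with the highest mean CPM, 21 were protein-coding, 5 of these mitochondrial, and 9 were not. The protein-coding rows in that ranking were, in order, TDH1, ENO1, PDC1, FBA1, ENO2, ADH1, PGK1, AI2, FKS1, AI1, YEF3, COX1, OLE1, CDC19, COX3, HSP26, GPM1, COX2, GSC2, PGI1 and HXT3. The rest of the 30 were SCR1, snR20, snR19 and the nucleolar rows snR17a, snR30, snR37, snR86, snR190 and snR17b. The 30 shared 27, 29 and 26 rows with the top 30 of control1, control12 and control13. At the other end, 260 of 6357 rows (4.09%) were under 1 CPM in every library, called nearly silent below. Among protein-coding rows it was 126 of 5769 (2.18%).

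Corrected for length, genes of glycolysis and ethanol formation led the protein-coding transcripts. TDH1, encoding a glyceraldehyde-3-phosphate dehydrogenase, was first in each library with 20958, 24054 and 34651 CPM per kb. The enolase gene ENO1 followed with 8806, 9899 and 18372 CPM per kb, and FBA1, encoding fructose-bisphosphate aldolase, with 7006, 7944 and 11825. The median of the 5769 protein-coding genes was 44.6 CPM per kb, and their 90th percentile was 169. Genes are called above or below this all-gene median by their mean over the 3 libraries, unless each library is named. ADH1, the main fermentative alcohol dehydrogenase, was at 6201, 5825 and 9542 CPM per kb, and PDC1, the main pyruvate decarboxylase, at 4359, 5329 and 8818. The phosphoglycerate kinase gene PGK1 was at 5105, 4968 and 7326 CPM per kb and the triose-phosphate isomerase gene TPI1 at 2200.2, 2295 and 3485. All of these were highest in control13, where the median over all protein-coding genes was lower, at 33.5 CPM per kb against 49.1 and 49.2.

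Outside this pathway, HSP26, encoding a small heat-shock chaperone, was at 4464, 6163 and 3197 CPM per kb, the eighth by mean and highest in control12. It was lowest in control13 by CPM but in control1 with TMM or RLE scaling. The mitochondrially encoded cytochrome oxidase gene COX3 was at 5352, 4186 and 2595 CPM per kb. Its partner COX2 was at 4880.5, 3583 and 2861 and COX1 at 3523, 2677 and 1774. OLI1, encoding a proton-channel subunit of ATP synthase in mitochondria, was at 3877, 2874 and 2641. These 4 mitochondrial genes were each highest in control1, also with TMM and RLE scaling. By CPM all 4 were lowest in control13, whereas with either scaling COX2 and OLI1 were lowest in control12. The rows AI1 and AI2, maturase reading frames that overlap COX1, are uncertain because reads could belong to either gene. OLE1, which encodes the desaturase of fatty acids, was at 2567, 1508 and 2951 CPM per kb, with its lowest value in control12. RPS31, a fusion of ubiquitin and a ribosomal protein, was at 1741, 1530.1 and 2696, and YGP1, encoding a secreted glycoprotein, at 2434, 2139 and 1236.

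**Figure D1:**
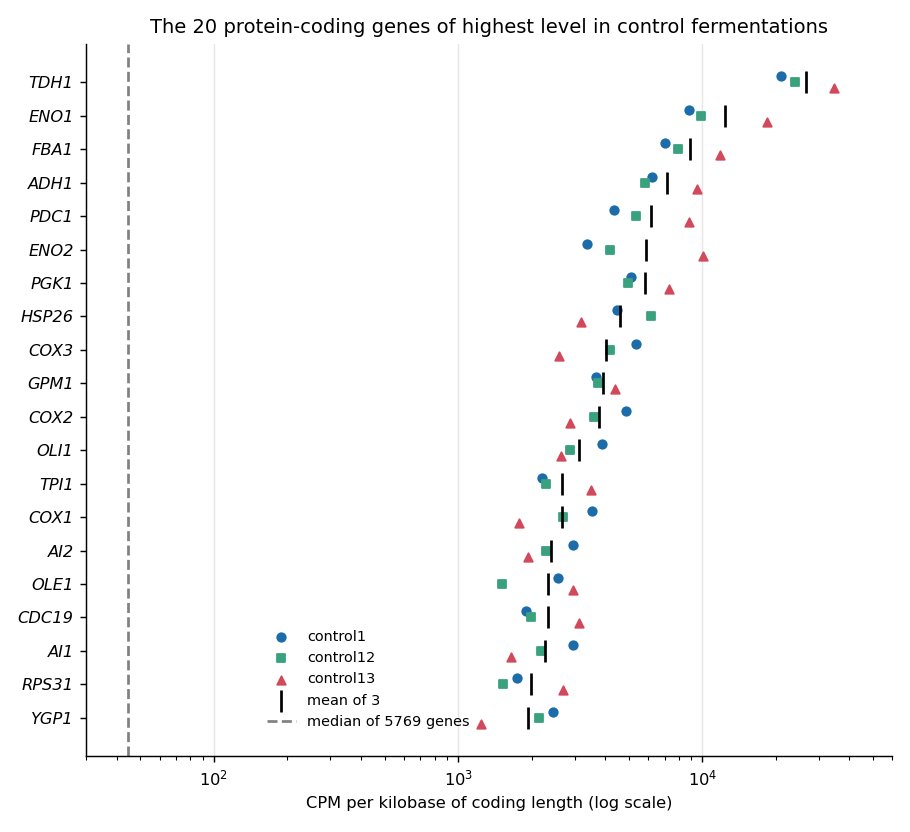
CPM per kilobase of coding length, on a log axis, for the 20 protein-coding genes with the highest mean over the control libraries, with 1 symbol per library and a bar for the mean. TDH1 lies at 20958 to 34651 CPM per kb, and all 20 genes lie far above the dashed median of 44.6.

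The enzymes of sugar phosphorylation showed no single leader. HXK1, a hexokinase, was at 283, 340.2 and 537 CPM per kb and GLK1, the glucokinase, at 308, 298 and 532, and their ranges overlapped. EMI2, encoding a related glucokinase, was at 143, 159 and 259. HXK2, the hexokinase known to dominate in laboratory strains on high glucose, was the lowest of the 4 in every library, at 62.8, 74 and 124 CPM per kb. HXK1 held 37.2 ± 1.78% of the family's summed level and HXK2 8.31 ± 0.37%. The subunits of phosphofructokinase, PFK1 and PFK2, were at 475 ± 35.3 and 434 ± 71.4 CPM per kb (mean ± SD, n = 3), with overlapping ranges.

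Among the 3 glyceraldehyde-3-phosphate dehydrogenase genes, TDH1 held 94.6, 92.6 and 92.2% of the summed CPM per kb (93.1 ± 1.28%, mean ± SD, n = 3). TDH2 was at 467, 852 and 1833 CPM per kb and TDH3 at 733, 1081 and 1096. TDH3 is known as the major form in laboratory strains growing on glucose. TDH1 was above both paralogs in every library, while the ranges of TDH2 and TDH3 overlapped. The 3 coding regions are alike, so reads can be shared: TDH1 was identical to TDH3 at 88.9% and to TDH2 at 90.2% of 999 positions, and TDH2 to TDH3 at 95.8%. The share of a gene's 50-base windows that occur once in R64 was 84.3% for TDH1, 68.7% for TDH2 and 75.6% for TDH3. How the counting treated shared reads is not given in the sources used here. With levels per kilobase of unique coding length instead, the share of TDH1 was 92%. The following stretch, coding positions 367 to 426 in R64, is one where a read can separate TDH1 from the others but not TDH2 from TDH3, with capitals marking the 17 of 60 bases at which the genes are not all alike.
TDH1 (chrX:338637-338696, plus strand): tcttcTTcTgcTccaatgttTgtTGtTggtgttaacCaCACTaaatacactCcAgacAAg
TDH2 (chrX:454256-454315, minus strand): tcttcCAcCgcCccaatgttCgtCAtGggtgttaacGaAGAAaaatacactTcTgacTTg
TDH3 (chrVII:883385-883444, minus strand): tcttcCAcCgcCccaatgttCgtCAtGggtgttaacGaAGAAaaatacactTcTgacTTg

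The enolase genes were both abundant. ENO1 held 72.3, 70.3 and 64.6% of the family's level and was above ENO2 in each library, although their ranges over libraries overlapped. ENO2, at 3371, 4179 and 10085 CPM per kb, is known as the glucose-induced form. ERR3, an enolase-related gene near a chromosome end, was nearly silent, with 0.877, 0.732 and 0.759 CPM. ENO1 and ENO2 are identical at 94.8% of 1314 coding positions, and 76.4% of the windows of each occur once. Their most different stretch of 60 bases in R64, coding positions 340 to 399, differs at the 13 bases in capitals.
ENO1 (chrVII:1001266-1001325, plus strand): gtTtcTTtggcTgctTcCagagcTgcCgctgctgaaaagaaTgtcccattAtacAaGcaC
ENO2 (chrVIII:451666-451725, plus strand): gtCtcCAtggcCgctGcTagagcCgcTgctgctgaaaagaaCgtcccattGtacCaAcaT

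For phosphoglycerate mutase, pyruvate kinase and pyruvate decarboxylase 1 gene took nearly all of the family's level. GPM1 held 97.7 ± 0.152% of the phosphoglycerate mutases, at 3929 ± 392 CPM per kb. CDC19 held 98.8 ± 0.294% of pyruvate kinase, with 1896, 1992 and 3120.4 CPM per kb against 27.8, 27.4 and 28.3 for PYK2. PDC1 held 97.1 ± 0.939% of pyruvate decarboxylase. PDC6 was above PDC5 in each library, at 75.3, 127 and 102 against 50.7, 89.3 and 81.7 CPM per kb, with overlapping ranges. Among 8 alcohol dehydrogenases ADH1 held 83.1, 80.1 and 89.1%. The next was SFA1, a formaldehyde and alcohol dehydrogenase, at 455, 564 and 406 CPM per kb. ADH2, the glucose-repressed enzyme that oxidises ethanol, was at 169.7, 173 and 248 CPM per kb. Of the ADH2 windows, 86% occur once.

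Branches off the pathway were lower. For glycerol, GPD1 held 80.03 ± 5.94% of glycerol-3-phosphate dehydrogenase and GPP1 70.1 ± 4.34% of the phosphatase. GPD2 was at 31, 28.9 and 100.8 CPM per kb, so its value in control13 was above both others. For acetate, ALD6, the cytosolic NADP-dependent aldehyde dehydrogenase, was at 317, 426 and 350.4 CPM per kb and held 64.5 ± 3.73% of its family. ACS2 held 87.3 ± 3.68% of acetyl-CoA synthetase, with ACS1 at 48.6, 48 and 37.6. In the pentose phosphate pathway GND1 held 95.6 ± 1.35%, TAL1 was at 668 ± 220.1 CPM per kb and TKL1 at 439.8 ± 75.2. Their paralogs GND2, NQM1 and TKL2 were at 22 ± 2.04, 8.08 ± 3.09 and 6.66 ± 1.95 CPM per kb.

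In mitochondrial and related metabolism the leaders were not always the best-known forms. CIT2, the peroxisomal citrate synthase, was at 567, 679.8 and 304 CPM per kb and above CIT1, the mitochondrial enzyme, at 122, 131 and 151, in every library. CIT2 held 81.8, 83.3 and 66.5% of the family, lowest in control13. CYC7, the cytochrome c isoform known from low oxygen, was at 329.6, 287 and 164 CPM per kb against 57.6, 30.1 and 64.9 for CYC1, so it was above CYC1 in each library. The oxidase subunits COX5A and COX5B, the second known as the hypoxic form, were at 199 ± 24.9 and 183 ± 17.9, and their ranges overlapped. PET9 led the ADP/ATP carriers with 80.9 ± 2.77%, while AAC3 and AAC1 were at 16.2 ± 4.19 and 7.38 ± 1.28 CPM per kb. Both alternative external NADH dehydrogenase genes, NDE1 and NDE2, were the lowest of the 33 nuclear respiratory genes, at 10.03, 6.81 and 5.95 (NDE1) and 9.57, 11.3 and 8.99 (NDE2) CPM per kb.

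In amino acid synthesis GDH1, the NADP-dependent glutamate dehydrogenase, held 82.6 ± 5.07% of its family. ASN1 held 70.3 ± 3.28% of asparagine synthetase, LEU4 80.7 ± 2.99% of isopropylmalate synthase, BAT1 74.6 ± 12.1% of branched-chain aminotransferase and ARO3 66.4 ± 9.21% of DAHP synthase. BAT1, the mitochondrial form, was at 161, 197 and 416 CPM per kb, highest in control13, and BAT2, the cytosolic form, at 85.8, 82.8 and 55.3, lowest there. For homocitrate synthase LYS20 was above LYS21 in each library, at 719 ± 169 and 310.0 ± 74.4 CPM per kb, but 62.2% of the LYS20 windows occur once.

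Among redox and chaperone genes, SOD1, the copper-zinc superoxide dismutase, was at 869, 768 and 804 CPM per kb. The peroxiredoxins AHP1 and TSA1 exchanged order: AHP1 was at 682, 742 and 676 and TSA1 at 528, 404 and 1369 CPM per kb. HSP82, an Hsp90 chaperone, was at 657, 1218 and 612 and HSC82 at 451, 732 and 349. The Hsp70 genes SSA1 and SSA2 were at 587, 1086 and 635 (SSA1) and 415, 856 and 493 (SSA2), but under 50% of the windows of either occur once (42.1% and 41.9%). All 4 of these chaperone genes were highest in control12, as were HSP104, a disaggregase gene, at 293, 546 and 235 CPM per kb, and SSA4, an inducible Hsp70 gene, at 91.8, 198 and 88.6. The ribosome-associated Hsp70 genes SSB2 and SSB1 were instead highest in control13, at 518, 541 and 812 (SSB2) and 160.1, 178 and 196 (SSB1), with 56.8% of the windows of each occurring once.

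In translation YEF3, the elongation factor 3 gene, held 98.9 ± 0.435% of its family, with HEF3 at 22, 24 and 10.5 CPM per kb. The pairs TEF1 and TEF2, and EFT1 and EFT2, cannot be ordered, because 7.53% and 8.06% of their windows occur once. Of the 45 families drawn up as isoenzymes with at least 2 measured genes, 38 have no near-identical members. Some of the 45 group subunits or different enzymes, such as phosphofructokinase subunits or superoxide dismutase and catalase. A leader there is not a choice between alternatives. Among those 38, the leading gene was the same in all 3 libraries in 32. In 11 that gene held at least 75% of the family in each library, and in 5 at least 90%.

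**Figure D2:**
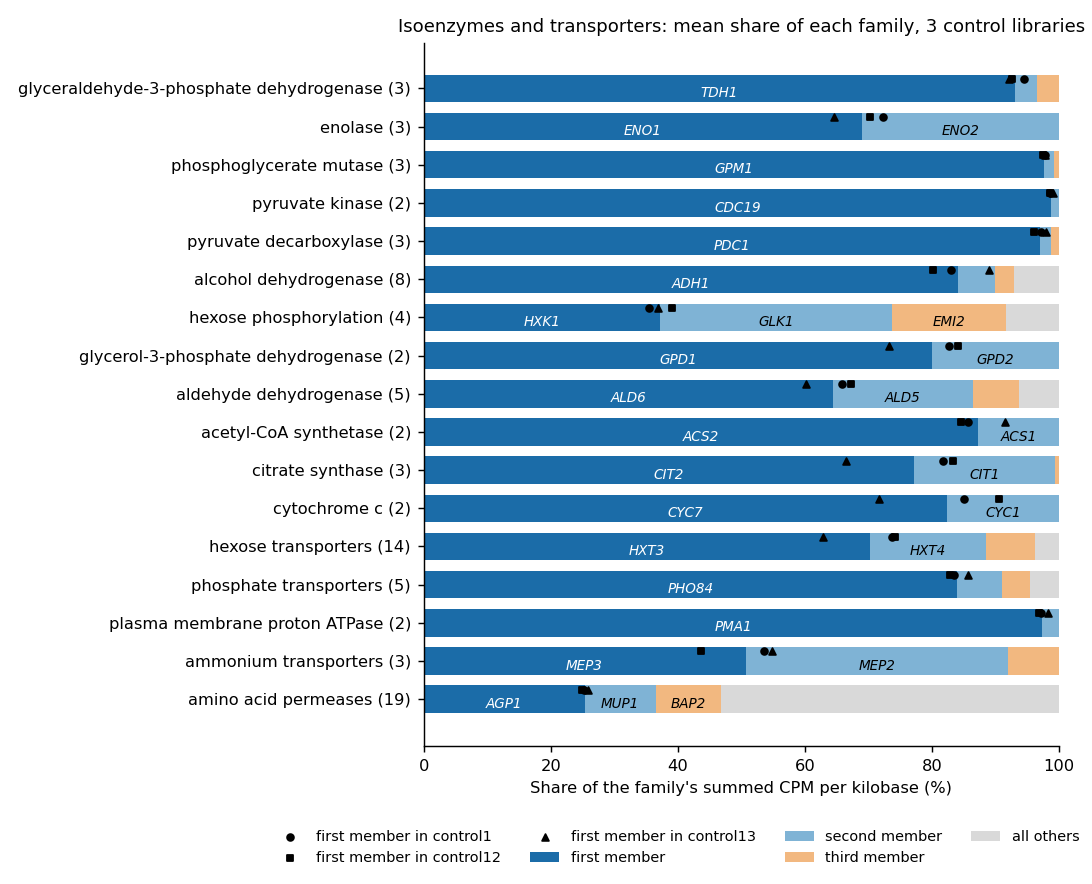
Share of each family's summed CPM per kilobase held by its first member, the next 2 and all others, as bars of the mean over the 3 control libraries, with symbols for the first member in each library and the number of measured members in brackets. TDH1, GPM1, CDC19, PDC1 and PMA1 hold over 90% of their families, whereas HXK1 holds 37.2% and AGP1 25.3%. The order of HXT3 and HXT6 was not settled.

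For sugar uptake HXT3, a low-affinity glucose transporter, was highest of the 14 hexose transporter genes measured when levels are taken per kilobase of whole coding length. It was at 1396, 1696 and 1358 CPM per kb and held 73.7, 74.2 and 62.9% of the summed level (70.3 ± 6.41%, mean ± SD, n = 3). HXT4 was at 286, 319 and 559.6 CPM per kb, highest in control13, and HXT6, a high-affinity transporter, at 134, 165 and 190.5. The genes HXT7, HXT15 and HXT16 were not analysed here, and HXT6 is nearly identical to HXT7, so 4.93% of the HXT6 windows occur once. Per kilobase of unique coding length the share of HXT3 was 31.7%, and leaving out members with a near-identical copy it was 76.9%. On that scale HXT6 led in each library, at 2713, 3340 and 3866 CPM per unique kb against 1639, 1992 and 1595.5 for HXT3. The order of HXT3 and HXT6 was therefore not settled by these counts.

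The other hexose transporters were below the all-gene median. HXT1, a low-affinity form known to be induced at high glucose, was at 16.1, 20.1 and 9.04 CPM per kb, HXT5 at 17.2, 18.5 and 13.8 and HXT2 at 12.4, 18.5 and 8.97. HXT14 was nearly silent, with 0.712, 0.813 and 0.152 CPM, and the galactose permease GAL2 was at 1.97, 3.42 and 0.607 CPM. RGT2 and SNF3, membrane glucose sensors, were at 38.6 ± 16.7 and 24.2 ± 7.94 CPM per kb, with overlapping ranges. Molasses carries mainly sucrose, which yeast splits outside the cell with the invertase of SUC2. SUC2 was at 40.3, 41.8 and 29.6 CPM per kb, below the all-gene median in each library. The maltose transporter genes MAL31 and MAL11 were at 37 ± 12.1 and 23.9 ± 8.04 CPM per kb.

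Amino acid uptake was spread over many genes. AGP1, a broad-range permease, held 25.2, 25 and 25.8% of the level of 19 permeases, at 562, 636 and 456 CPM per kb. MUP1, for methionine, followed at 243 ± 37 and BAP2, for branched-chain amino acids, at 225 ± 60.4, with overlapping ranges. BAP3, LYP1 and GAP1, for branched-chain amino acids, lysine and amino acids in general, were at 137 ± 4.9, 131 ± 18.8 and 121 ± 38 CPM per kb. In the list 16 of 19 genes were above the all-gene median. The proline permease PUT4 was lowest, at 4.13, 3.32 and 3.47 CPM per kb. For ammonium, MEP3 and MEP2 were at 188, 161 and 149.7 (MEP3) and 137, 172 and 104.9 (MEP2), and MEP1 was below both at 26.2, 35.8 and 18.5.

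**Figure D3:**
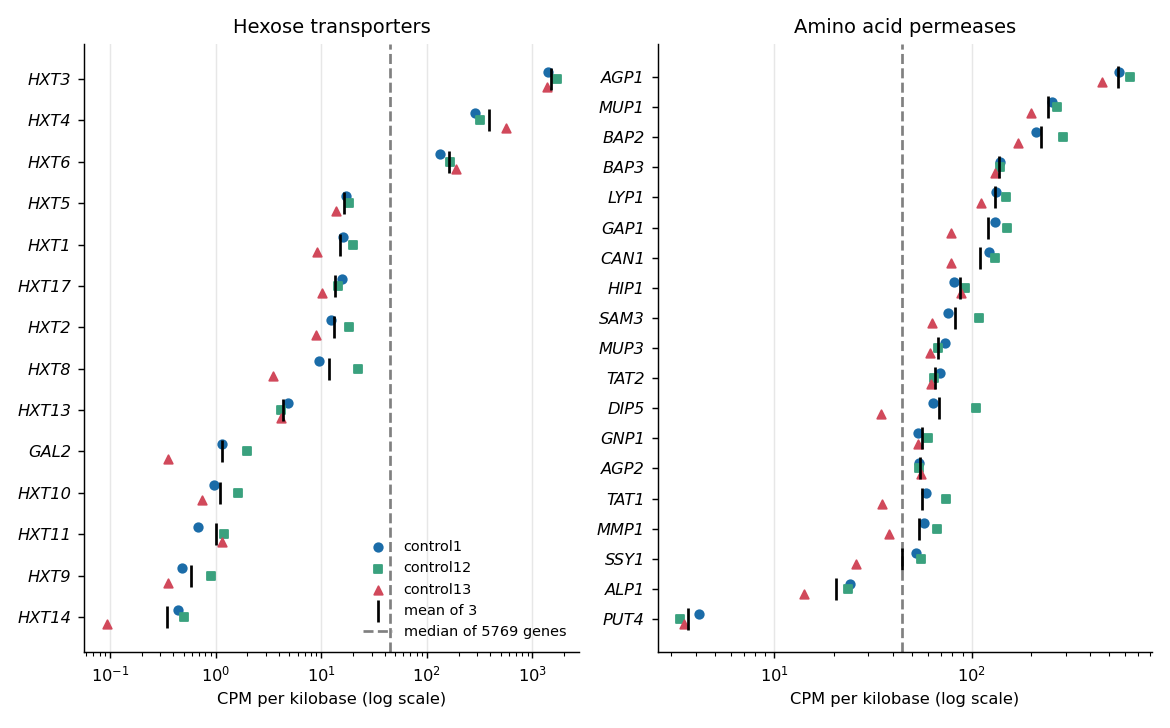
CPM per kilobase of coding length, on log axes, of the hexose transporters (left) and amino acid permeases (right), with 1 symbol per control library, a bar for the mean and a dashed line at the all-gene median of 44.6. Of the hexose transporters, HXT3, HXT4 and HXT6 lie above that line, and AGP1 leads the permeases at 456 to 636.

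For ions, 1 gene led several families. PMA1, the plasma membrane proton pump, held 97.4 ± 0.772% against PMA2, at 671, 670.3 and 1044 CPM per kb. PHO84, the high-affinity phosphate transporter, was at 604, 657 and 717 CPM per kb and held 84 ± 1.53%, while PHO89, a sodium-dependent phosphate transporter, was at 1.21, 1.56 and 0.616. SUL2 held 81.2 ± 6.5% of the sulfate transporters, and SUL1 was at 37.7, 50.1 and 14.5 CPM per kb. ZRC1, for zinc entry into the vacuole, held 34 ± 3.07% of 8 zinc and copper transporters. TRK1 led the potassium transporters at 64.9 ± 18 CPM per kb. FET5, FTH1 and FET4 led the iron transporters at 69.7 ± 15.2, 61.1 ± 15.5 and 61.4 ± 22.1, with overlapping ranges. The sodium pump genes ENA5 and ENA1 were at 2.65 ± 0.898 and 1.32 ± 0.118 CPM per kb, with 8.83% and 11.5% of their windows occurring once.

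Of the drug efflux pumps, SNQ2 was at 387, 431 and 248 CPM per kb and PDR5 at 224, 196 and 106. They held 43.6 ± 1.47% and 21.2 ± 3.12% of 8 listed ABC transporter genes. That list also holds AUS1 and PDR11, known for sterol uptake rather than drug efflux. MPC2, a pyruvate carrier subunit known from fermenting cells, held 84.4 ± 6.5% of its family, and MPC3, its respiratory counterpart, was at 13.3, 15.9 and 14.1 CPM per kb. The share also counts the subunit gene MPC1, at 65.4, 47.8 and 37.5 CPM per kb. FPS1, the glycerol channel, was at 73.8, 80.2 and 54.2 CPM per kb. The water channel AQY2 was at 20.3, 27.6 and 16.9, and AQY1 was under 1 CPM in all libraries, at 0.438, 0.976 and 0.152 CPM. The allantoate and urea transporter genes DAL5 and DUR3 were at 23.6 ± 9.83 and 12.2 ± 4.39 CPM per kb. Of 17 transporter families, 15 have no near-identical members, which leaves out the hexose transporters and the sodium pumps. Among those 15, the leading gene was the same in all 3 libraries in 13, and in 4 it held at least 75% in each. FPS1 is counted more than once there, since it led both the aquaporins and the carboxylate and acetate transporters. The glucose sensors and the pyruvate carrier subunits also count as families, so a leader is not always a choice between alternatives.

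By pathway, the 17 glycolysis genes held 6.51, 7.31 and 11.5% of all counts, highest in control13, and 6.91% as the mean without it. All but PYK2 were above the all-gene median. The 8 genes of ethanol formation held 1.47, 1.61 and 2.59%, or 1.54% without control13. The 135 cytosolic ribosomal protein genes held 3.06, 3.06 and 4.48%, also highest in control13, and 3.06% without it. Of these, 134 were above the all-gene median and 123 above the 90th percentile. The exception was RPL43A, at 18.5, 20.1 and 18 CPM per kb. RPL10 was at 1241, 1309.8 and 1505 and RPS3 at 1064, 1020.0 and 1457. The 71 mitochondrial ribosomal protein genes were lower, with a median of 53.8 CPM per kb, 51 above the all-gene median and 0 above the 90th percentile. MRPL38 was lowest at 6.18, 6.24 and 0.364 CPM per kb. Whether overlapping rows took reads from RPL43A or MRPL38 was not tested.

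All 23 ergosterol genes were above the all-gene median, led by ERG11, the lanosterol demethylase gene, at 1851, 1282 and 1615 CPM per kb, ERG3, a desaturase gene, at 1477, 1074 and 1591 and ERG25, a methyl oxidase gene, at 1521, 1128 and 1325. The lowest was ERG24 at 70.0, 65.1 and 73. The ergosterol list held 1.46, 1.07 and 1.37% of counts and the fatty acid list 1.3, 0.868 and 1.47%, both lowest in control12. Fatty acid synthase genes FAS1 and FAS2 were at 429, 269 and 501 (FAS1) and 462, 307 and 505 (FAS2) CPM per kb. The acetyl-CoA carboxylase gene ACC1 was at 249.6, 178 and 313. The acyl-CoA-binding protein gene ACB1 was at 46.1, 47.7 and 77.1, below the median of the library in control1 and control12.

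Cell wall genes were among the abundant transcripts. The glucan synthase genes FKS1 and GSC2 were at 981, 887 and 1281 (FKS1) and 539.9, 422 and 485 (GSC2) CPM per kb. Of 23 mannoprotein and related genes, 20 were above the all-gene median. CCW12, a structural mannoprotein gene, was at 1248, 824 and 2990.4 CPM per kb, SED1, a stress-related wall protein gene, at 739, 441 and 2198 and CWP2 at 673, 418 and 2649.9. These 3 were highest in control13. YGP1, with the highest mean of the list, was instead highest in control1, at 2434, 2139 and 1236 CPM per kb. CWP1, another mannoprotein gene, was at 3.73, 3.28 and 3.8, and EGT2, a daughter-cell separation gene, at 3.03, 2.84 and 3.64. The 5 flocculin genes, which make cells clump, were all below the median, from FLO5 at 20.1, 25.3 and 14.6 to FLO11 at 0.467, 0.852 and 1.41 CPM per kb.

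Respiratory and biosynthetic genes were expressed beside the fermentative ones. All 15 tricarboxylic acid cycle genes were above the all-gene median, from LSC2 at 59.3 ± 7.49 to ACO1 at 237 ± 30.05 CPM per kb. Of 33 nuclear respiratory chain and ATP synthase genes 30 were above it, led by COX13 at 630.4, 476 and 502 CPM per kb. All 32 proteasome genes were above it, from 85.4 ± 17.8 CPM per kb (RPN12) to 193 ± 53.8 (RPN4, their transcriptional activator). In methionine and sulfur assimilation MET6, the methionine synthase gene, was at 799.9, 687 and 1146 CPM per kb. ARG1 and CPA1 of arginine synthesis were at 672 ± 80.3 and 472 ± 72.4. Histone genes ranged from HTZ1 at 36.3 ± 8.85 to HHT2 at 614 ± 239. In the thiamine list the transporter gene THI7 was at 273, 331 and 291 CPM per kb, whereas THI4, for the thiazole ring, was at 5.31, 7.71 and 6.81 and THI11, with 21.1% of its windows occurring once, was nearly silent at 0.438, 0.325 and 0 CPM.

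The general stress list was uneven. HSP26 was at 2879.6, 3975 and 2062 CPM, whereas HSP12, a membrane-protecting stress protein gene often used as a marker of the same response, was at 0.712, 0.895 and 1.06 CPM. HSP30, a plasma membrane stress gene, was at 735, 1132 and 694 CPM per kb and UBI4, polyubiquitin, at 431, 418 and 536. The stress-induced genes DDR2 and GRE1 were far lower, at 40.4, 25.4 and 51.4 (DDR2) and 14.6, 17.2 and 8.69 (GRE1) CPM per kb, and SIP18, linked to desiccation, was at 9.36, 8.81 and 8.22. In all, 22 of 27 genes of the list were above the all-gene median and 15 above the 90th percentile. The level of HSP12 per kilobase was 2.16, 2.71 and 3.22, and all of its windows occur once in R64. Whether its reads in CAT-1 match the reference gene was not tested.

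The letters AGGGG, the stress response element bound by Msn2 and Msn4, stand upstream of both HSP26 and HSP12 in the R64 reference. The windows below run from 350 to 101 bases before each start codon, with the element in capitals on either strand (CCCCT where it lies on the other). HSP26 had 1 match and HSP12 had 2, and each also held 1 TATAAA, which does not overlap the element. AGGGG was found in 20.3% of 5753 such windows of measured nuclear genes, in 15 of the 50 genes with the highest CPM per kb and in 20 of 125 nearly silent genes. TATAAA, also searched on both strands, was in 39.0% of all windows, in 28 of the 50 and in 41 of the 125. A match is only a run of letters, and the sequence is that of the reference strain.
HSP26 (chrII:381680-381929, plus strand): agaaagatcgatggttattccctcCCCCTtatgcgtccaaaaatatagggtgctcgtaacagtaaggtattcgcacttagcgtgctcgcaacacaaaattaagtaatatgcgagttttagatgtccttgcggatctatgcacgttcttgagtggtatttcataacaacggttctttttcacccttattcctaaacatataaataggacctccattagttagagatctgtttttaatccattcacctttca
HSP12 (chrVI:106906-107155, plus strand): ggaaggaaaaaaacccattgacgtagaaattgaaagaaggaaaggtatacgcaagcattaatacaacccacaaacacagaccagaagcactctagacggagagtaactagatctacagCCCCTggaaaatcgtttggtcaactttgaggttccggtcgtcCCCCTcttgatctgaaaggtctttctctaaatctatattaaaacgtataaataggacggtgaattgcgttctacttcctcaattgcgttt

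**Figure D4:**
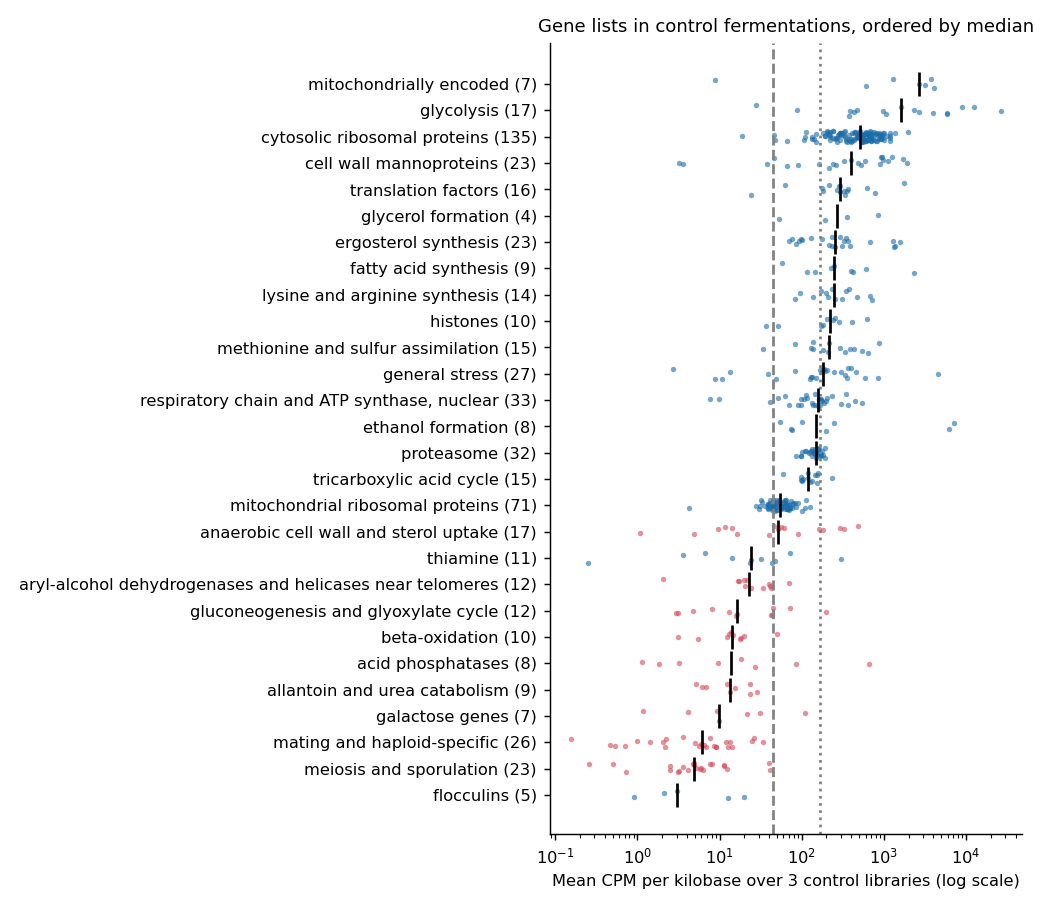
Mean CPM per kilobase of each measured gene, on a log axis, in 28 gene lists ordered by their median (bar), with pathway lists in blue and lists drawn up as likely low in red, and the number of genes in brackets. The dashed and dotted lines are the median and the 90th percentile of all protein-coding genes (44.6 and 169 CPM per kb). Mating and sporulation lists lie wholly below the median, and 123 of 135 cytosolic ribosomal protein genes lie above the 90th percentile.

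Genes for mating and spore formation were the lowest of the lists drawn up as likely silent. None of 26 mating and haploid-specific genes reached the all-gene median, and 5 were nearly silent. These were MFA1 and MFA2, which encode the a-factor pheromone, MF(ALPHA)1, which encodes alpha-factor, AGA2, an a-agglutinin subunit gene, and FIG1, a mating-induced membrane protein gene. MFA2 had 1, 0 and 0 counts, MFA1 had 3, 2 and 0 and MF(ALPHA)1 had 6, 2 and 2. The second alpha-factor gene MF(ALPHA)2 was at 10.9, 11.5 and 6.07 CPM, the a-factor receptor gene STE3 at 0.822, 1.14 and 0 and the alpha-factor receptor gene STE2 at 19.3, 20.2 and 7.44. KAR4, a mating transcription factor gene, was highest in the list at 39.3, 41.3 and 20.9 CPM per kb. None of the 6 a-cell, 4 alpha-cell or 9 haploid-specific markers exceeded the all-gene median. In bulk RNA, fewer cells that express a gene and less of its RNA per cell cannot be told apart.

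The 23 meiosis and sporulation genes were also all below the median, and 2 were nearly silent. IME1, the inducer of meiosis, was at 0.932, 0.244 and 0.456 CPM, and SPS4, a sporulation gene, at 0.384, 0.244 and 0.152. SSP1, of spore membrane assembly, was at 1.37, 0.813 and 1.52 CPM. GAS2 and SGA1, a spore wall enzyme gene and a glucoamylase gene, were highest, at 41.4, 59.6 and 21.4 (GAS2) and 40.1, 43.1 and 35.2 (SGA1) CPM per kb. The spore wall chitin deacetylase genes CDA1 and CDA2, outside the list, had 5, 5 and 0 (CDA1) and 3, 4 and 0 (CDA2) counts. The summed level of 8 sporulation markers was 61.8, 72.6 and 40.1 CPM, against 28266, 30896 and 53113 CPM for 6 fermentation markers.

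Genes for other carbon sources were low but mostly detected. The galactose enzyme genes GAL1 and GAL10 were at 9.46, 13.9 and 6.41 (GAL1) and 10.3, 12.2 and 5.78 (GAL10) CPM per kb, and GAL7 was at 4.48, 5.54 and 2.48, while GAL80, their repressor gene, was at 121, 119.8 and 91.6, above the median. For gluconeogenesis, PCK1 was at 4.92, 5.52 and 3.77 and FBP1 at 8.79, 8 and 7.69 CPM per kb, and for the glyoxylate cycle ICL1 and MLS1 were at 15.6, 18.6 and 13.8 (ICL1) and 18.9, 19 and 10.7 (MLS1). ADH2, CAT2 and ACS1 were the 3 of 12 genes in this list above the median. ACS1 passed it narrowly, with a mean of 44.7 against 44.6 CPM per kb. It was below the median of the library in control1 and control12. In beta-oxidation 1 of 10 genes was above it, the peroxisome gene PEX11 at 49.9, 47.1 and 53 CPM per kb, and SPS19 was lowest at 3.49, 4.26 and 1.55. All 9 genes of allantoin and urea use were below the median, from DCG1 at 5.15 ± 2.37 to DAL7 at 28.2 ± 7.2 CPM per kb. The secreted acid phosphatase gene PHO5 was at 27.5, 28.6 and 25.7 CPM per kb. Its relatives PHO11 and PHO12 were lower, at 1.86 ± 0.862 and 3.17 ± 0.0337. The part of shared reads in their low counts was not tested.

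Genes known from oxygen limitation differed widely among themselves. Of 17 genes 10 were above the all-gene median. TIR1, a cell wall mannoprotein gene, was at 209, 204 and 1029.6 CPM per kb, HEM13, of heme synthesis, at 225, 287 and 459.5 and ANB1, the hypoxic eIF5A gene, at 190.1, 217 and 468, each highest in control13. Only ANB1 of the 2 listed eIF5A genes was measured, so reads shared with the other could not be judged. The sterol importer gene AUS1 was at 13.3, 17.4 and 11.7 CPM per kb. PAU24 was nearly silent, at 0.548, 0.488 and 0.152 CPM, as were PAU3, PAU10 and PAU19, which lie outside the list and were named after their values were seen. These PAU genes are alike, with 47.1, 61, 13.7 and 27.9% of their windows occurring once, in that order, and the part of shared reads in their low counts was not tested. Of the genes whose function laboratory strains often lack, LEU2 was at 235, 319 and 612, URA3 at 118, 118 and 61.2 and HIS3 at 113, 129.9 and 140.4 CPM per kb.

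The 260 nearly silent rows held 126 protein-coding genes, 124 rows whose names matched no entry of the reference, and 10 rows for other RNAs. No row was at 0 in every library, and 2, 8 and 77 rows were at 0 in control1, control12 and control13. Over all 9 columns of the table the lowest row total was 13 counts, and features with fewer, if any, were not analysed here. The limit of 1 CPM is not corrected for length, so a short gene can fall under it at a higher level per kilobase. Nearly silent nuclear coding genes were short, with a median of 330 bases against 1212 in all of them, and 72% had no gene symbol against 10.01%. Of them, 17.6% lay within 30 kb of a chromosome end against 5.20% of all nuclear coding genes, and 15.2% against 2.12% had under 50% unique windows. Overlap with another gene of the reference was found for 14.4% of them against 2.85%. Overlap with the 506 unmatched rows was not included. Coding genes of up to 200 bases had a median of 8.05 CPM per kb. Named genes that were nearly silent included LSM8, an RNA-binding protein gene with 10, 7 and 3 counts, and MET28, a sulfur regulator gene with 7, 7 and 5. FIT2, a cell wall iron-binding protein gene, had 13, 6 and 0 counts. Whether overlapping rows lowered the counts of these genes was not tested.

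The spread between libraries was mostly that of control13. Of 3213 rows with a mean of at least 50 CPM, 30 had an SD over 1 on the log2(CPM + 1) scale, 29 of them with control13 above the average of its partners, and without control13 there were 0. The largest SDs among coding genes were those of SIM1, of the cell wall, at 10.6, 10.6 and 304 CPM, and RNR3, a ribonucleotide reductase gene, at 26.8, 69.3 and 498. RNR1, the major large subunit gene, was at 292, 336 and 2216 CPM. The G1 cyclin genes CLN1 and CLN2 were at 39.4, 26.1 and 249 (CLN1) and 51.1, 35.5 and 392 (CLN2) CPM, and PCL1, a related cyclin gene, at 38.1, 27.9 and 334. MCD1, of sister chromatid cohesion, was at 23.7, 24.8 and 239 and YOX1, a cell cycle repressor gene, at 48.7, 42.3 and 376 CPM.

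The other coding genes among the 15 rows of largest SD were CIS3, CWP2, TIR1, PRY2 and CSI2. CIS3, a cell wall mannoprotein gene, was at 82.7, 64.2 and 395 CPM, CWP2 at 188, 117 and 739, TIR1 at 160.3, 156 and 788, PRY2, a secreted sterol-binding protein gene, at 112, 77.3 and 456, and CSI2 at 28.2, 22.9 and 122. Each was higher in control13 than in both other libraries. Outside coding genes, the unmatched row RDN37 was at 0.164, 0.163 and 229 CPM and YLR154W-E at 21.5, 12.8 and 914. The part of these rows in the results was not tested, and a difference of control13 in culture, sampling or library preparation cannot be told apart.

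**Figure D5:**
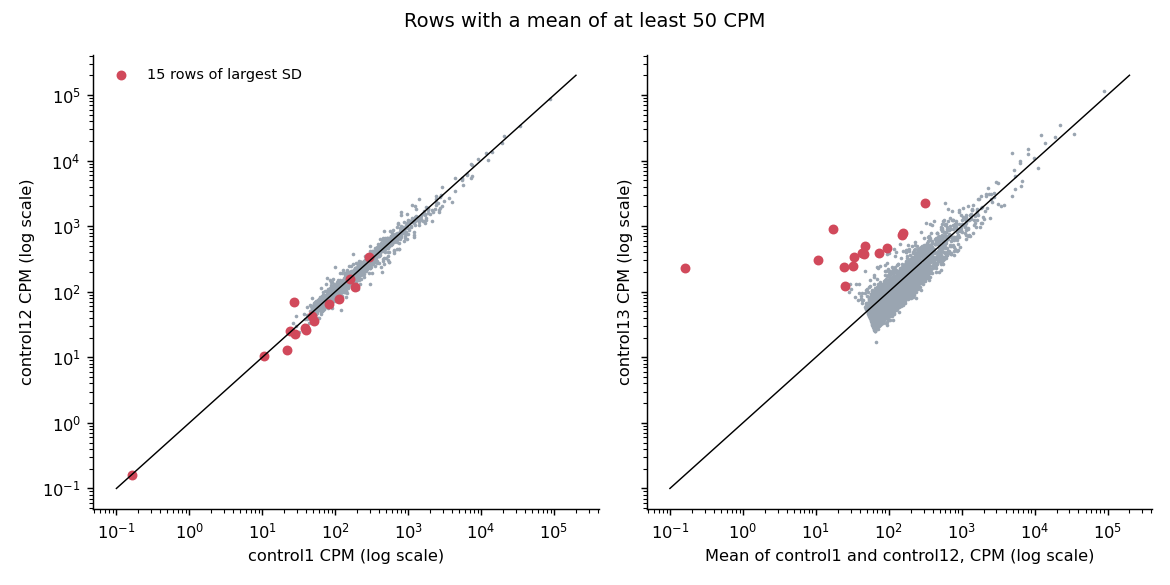
CPM on log axes for rows with a mean of at least 50 CPM, comparing control12 with control1 (left) and control13 with the mean of those libraries (right), with the line of equality and the 15 rows of largest SD in red. All 15 red rows lie above the line on the right, and RNR3 is among the 8 rows more than 2-fold apart on the left. On the right RNR1 reaches 2216 CPM in control13.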

How the data were processed

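RNA was sequenced from 3 control samples of a series of 9 libraries. The authors deposited raw read counts per annotated feature (6357 rows, 9 columns), of which the 3 control columns were used. TopHat2 2.0.9 and HTSeq 0.6.0 appear, with no role, in the submitters' processing notes. Not given in the sources used here are the authors' build, annotation, strand setting and treatment of shared reads, which leaves antisense and overlapping genes uncertain.

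Rows were matched to the RefSeq table of assembly R64 by locus tag (5783), symbol (65) or synonym (3), with 506 unmatched. CPM used column totals, and coding lengths, unique 50-base windows and sequences came from R64 (RefSeq). Near-identical copies were found with BLAST+ 2.17.0 (identity of 95% and up, across 50% or more of the coding length). All library pairs differed by more than counting noise (chi-square per degree of freedom of 30.5 to 161), so each library was counted once. TMM and RLE factors came from edgeR 4.0.16 in R 4.3.3, and other steps used Python 3.11.15, tested on simulated data.

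Named genes were the 30 rows highest by CPM, the 20 highest per kilobase, the main members of each family, list members of highest and lowest level or under 1 CPM, and the 15 rows of largest SD with a mean of at least 50 CPM. Genes named for a known role only were chosen after their values were seen. The members and lists were chosen with earlier results of these data known. Alternatives left out each library, restricted the total to nuclear protein-coding rows, or changed limits, scaling and length correction.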

Additional observations from a re-analysis of the deposited data

How the results depend on the processing

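No paired analysis was possible because there is 1 group, no result comes from a test, and the columns control12 and control13 carry no replicate number. Taking nuclear protein-coding rows as the total moved the top 10, 50 and 100 shares to 13.6, 23.5 and 29.9% by construction, and the list shares to 11.4% (glycolysis), 2.54% (ethanol formation), 1.75% (ergosterol), 1.63% (fatty acids), 1.61% (cell wall), 1.51% (general stress), 4.76% (ribosomal proteins) and 0.38% (tricarboxylic acid cycle). The share of HXT3 was 76.9% without members that have a near-identical copy and 31.7% per kilobase of unique coding length, an alternative chosen after seeing the data. Without length correction AGP1 held 26.2% and PHO84 77.5%. Nearly silent rows numbered 128 at a limit of 0.5 CPM, 424 at 2 CPM and 126 among protein-coding rows. Rows with an SD over 1 numbered 0 to 58 when 1 library was left out (0 without control13, 58 without control1, 47 without control12), 47 from a mean of 10 CPM, 53 with TMM and 57 with RLE scaling. Among rows over 2-fold from the average of the other libraries, the number higher in control13 went from 77 to 298 (TMM) and 313 (RLE) and the number lower from 255 to 4 and 3, alternatives added after seeing the data. The share of HXT6 went from 7.69 to 59.5% per kilobase of unique coding length, the only change of leader among 62 families. Ranking per kilobase kept 31 of the 50 coding genes highest by CPM. In control13, 1 CPM is only 6.59 counts.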

Other observations

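Genes that lie outside the lists described above were picked after their values were seen, for a high level per kilobase. HAC1, whose spliced transcript encodes the activator of the unfolded protein response, was at 2032, 1711 and 1870.2 CPM per kb, within a narrow range over the libraries. The counts do not separate its spliced and unspliced forms. The endoplasmic reticulum chaperone gene KAR2 was at 608, 994 and 769.9 CPM per kb and the disulfide isomerase gene PDI1 at 538, 624 and 1037. Both lie far above the all-gene median of 44.6.

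Other genes picked in the same way are known from nitrogen and amino acid metabolism. GLN1, the glutamine synthetase gene, was at 1376, 1360.2 and 1284 CPM per kb. GCN4, the activator of amino acid synthesis, was at 903, 829.9 and 1474, highest in control13, and PCL5, a cyclin gene that promotes turnover of the Gcn4 protein, was at 986, 1039.8 and 1070.2. The cell wall genes GAS1, for glucan elongation, and ECM33 were at 882, 776 and 1069 (GAS1) and 838, 755 and 1457 (ECM33) CPM per kb. The actin gene ACT1, often used as a reference in expression assays, was at 796, 836 and 1566 CPM per kb and thus was higher in control13 than in both other libraries.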
